A study of Caenorhabditis elegans with 12 samples.

Results

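A set of 87 X-linked genes that were read out in the bodies of XX worms but hardly at all in their gonads was compared between XO and XX Caenorhabditis elegans. Members were chosen by their level: rows on the X chromosome of the WBcel235 annotation with a mean of at least 10 CPM (a count divided by all gene counts of its library, times 1000000) in XX whole worms and under 0.5 CPM in XX gonads, each a mean of 3 libraries. Of 20389 gene rows, 2718 were X-linked, 759 of these reached 10 CPM in XX whole worms and 92 met both level limits. Genes of 11 symbol families were set aside by the rule, which removed ttr-36, ttr-48, nhr-14, col-166 and flp-28 and left 87. Measured values thus chose the members, so their presence in XX whole worms and their near absence from XX gonads are not findings.

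The fog-1(q253) allele, which is temperature-sensitive, was present in all animals, and they were kept at 25 °C, where germ cells of both karyotypes take an oocyte in place of a sperm fate. Polyadenylated RNA was sequenced from 4 groups of 3 libraries, namely gonads dissected from XO young adults, gonads dissected from XX young adults, whole XO young adults and whole XX young adults. Each gonad sample pooled at least 200 gonads and each whole worm sample at least 600 animals. Whether the replicates were grown as separate cultures is not in the labels, and p-values therefore reflect only the spread between these libraries, part of which may be technical.

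Worms with a single X develop a male body and worms with a pair of X chromosomes develop a hermaphrodite body, here female because no sperm are made. In the XX soma a condensin-based dosage compensation complex, loaded on X by SDC-2, lowers transcription of both X chromosomes toward the output of the single X of males, and XOL-1 blocks that system in XO embryos. The complex does not act in the germline, where other means hold many X-linked genes low. Of the 759 X-linked rows at 10 CPM or more in XX whole worms, only 92 were under 0.5 CPM in XX gonads. Genes used by the body alone are thus a natural place to read somatic X output. Male and hermaphrodite bodies also differ in their cells, and in bulk samples fewer cells of a type and less RNA per cell cannot be told apart.

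The libraries held between 7912618 and 16140259 gene counts, and replicates of a group differed beyond sampling noise in every pair. The first XX gonad library stood apart from the other two, with a chi-square per degree of freedom of 113 and 155 against them, where all other replicate pairs gave 4.81 to 19.7. Without that library the rule gave 90 members, 86 of them among the 87. The intestine marker elt-2 was near 0 in XX gonads at 0.0208 CPM ± 0.0360 (SD, n = 3) and at 5.96 CPM ± 1.31 in XX whole worms, while the muscle myosin gene unc-54 gave 149 CPM ± 33.3 in XX gonads; whether that came from the somatic gonad or from tissue carried along was not tested. A list of germline genes summed to 19373 to 20195 CPM in XO and 19632 to 20929 CPM in XX whole worms. With TMM scaling, 16 of those 33 genes were lower and 1 higher in XO by edgeR, with a median log2 fold change of -0.20. Over all genes tested, 24.2% were lower and 29.2% higher.

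The members just inside the whole worm limit were B0410.3 at 10.1, Y15E3A.4 at 10.2 and C52G5.2 at 10.5 CPM, and mec-7 at 9.99, K10C2.8 at 9.802 and C44C10.9 at 9.52 CPM fell just outside it. The members nearest the gonad limit were C05D9.3 at 0.491, aqp-8 at 0.464 and T02C5.1 at 0.451 CPM, and F22F4.4 at 0.509, spp-3 at 0.511 and R03G8.6 at 0.533 CPM lay just beyond it. The rule kept 11.5% of the X-linked rows at 10 CPM or more in XX whole worms and 4.93% of the autosomal ones. The autosomal rows so chosen, 303 genes of 6145, meet the same limits and the same exclusions, and they serve as the comparison where named.

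Under this rule and with TMM scaling, XO and XX bodies gave nearly the same middle value for the members. Single genes moved widely around it in both directions. The median log2 fold change of XO over XX whole worms was 0.07, a ratio of 1.05, with the middle of the list between -0.42 and 0.52 and the extremes at -6.60 and 2.01. All 87 members passed the filter on low counts. By the quasi-likelihood test of edgeR, with p-values adjusted by Benjamini-Hochberg over all genes tested, 30 were higher in XO (34.5% of the members, against 29.2% of all 12259 genes tested), 24 were lower (27.6%, against 24.2%) and 33 did not pass, where 53.4% of all genes passed in either direction. The median over all genes tested was 0.02. Means differed from medians, at -0.29 for the members, -0.06 for the autosomal genes of the same rule and 0.29 over all genes tested. Libraries of the groups did not overlap for 32 members with XO above (background 32.9%) and for 25 with XO below (background 28.6%, 61.5% in either direction), and they overlapped for 30. The shares called in each direction therefore lay near the background. A gene low in XX but high in XO could not enter the list. The counts and the median thus describe the members and test nothing about them as a group. The median also moved with the rule and the scale. It was 0.55 for genes chosen by the same limits in XO libraries and 0.24 with the limits set on both karyotypes. For the members with library size alone as the scale it was 0.31.

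**Figure D1:**
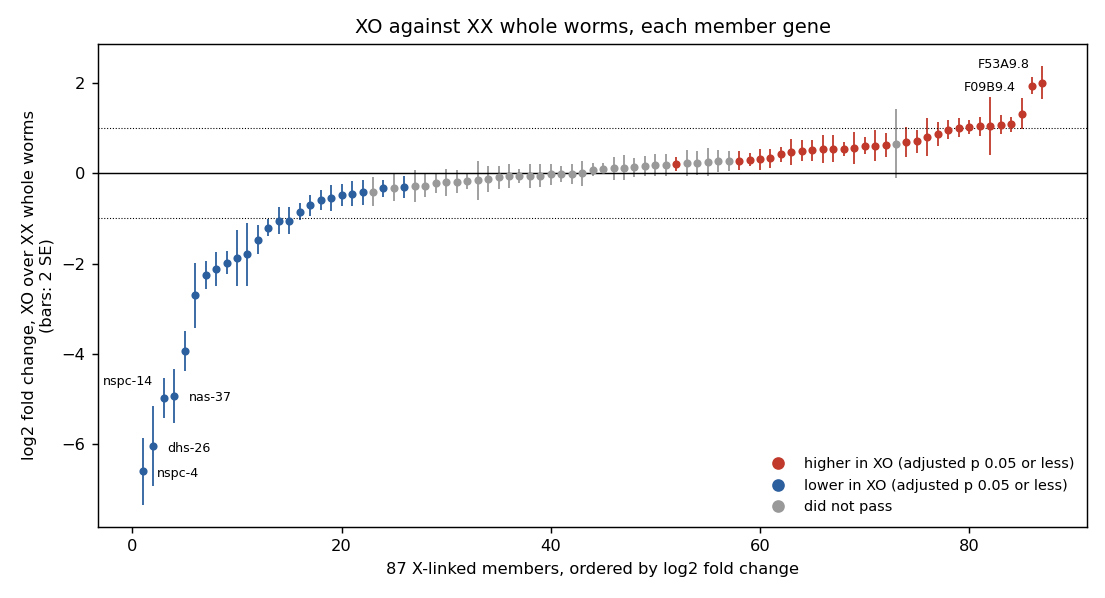
Log2 fold change of XO over XX whole worms (vertical axis) for each of the 87 members, ordered from lowest to highest along the horizontal axis, with bars of 2 SE and dotted lines at -1 and 1. The 30 red genes were higher and the 24 blue genes lower in XO at an adjusted p of 0.05 or less, and the 33 grey genes did not pass; the lower tail reached -6.60 and the upper tail 2.01.

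Differences of 2-fold or more were found in both directions. In XO, 9 members were at least 2-fold higher (10.3%, background 16.7%) and 15 at least 2-fold lower (17.2%, background 8.7%). Among the autosomal genes of the same rule, 48 (15.8%) were at least 2-fold higher and 43 (14.2%) at least 2-fold lower, so genes chosen as high in XX held a larger share of 2-fold falls than all genes on autosomes too. The log2 fold change lay within 0.5 of 0 for 44 members (50.6%, background 58.8%). A further view of even output comes from the precision of each gene: the interval of 2 standard errors (SE) around the log2 fold change lay wholly within 0.5 of 0 for 24 of the 87 members (27.6%), for 46 of the 303 autosomal genes (15.2%) and for 40.2% of all genes tested. For 71 members (81.6%) that interval lay wholly above -1, the value of a body that gives output in proportion to X number, and for 13 of the 87 it lay wholly below -1. The 303 autosomal genes have the same copy number in both karyotypes. Of these 303, 243 (80.2%) had intervals wholly above -1 and 29 wholly below it. Over all 12259 genes tested the interval lay wholly above -1 for 86.96% and wholly below it for 780. The share wholly below -1 was thus largest among the members and smallest over all genes, under a rule that chose genes high in XX. The median SE was 0.13 for the members, so a gene missing the test at this precision is not shown to be equal.

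Against the autosomal genes of the same rule, the members sat slightly lower in XO. Of those 303 genes, 134 were higher in XO, 90 lower and 79 did not pass, with a median log2 fold change of 0.24 (middle of the list -0.49 to 0.75). The median of the members was lower by 0.17 on the log2 scale, a difference of -0.17 or a ratio of 0.89. The sign of this difference depended on the whole worm limit: with 20 CPM in place of 10 CPM, 38 X-linked and 127 autosomal genes remained and the difference was 0.17 in the other direction. Over all 1716 X-linked genes tested, germline-expressed genes included, 512 were higher and 723 lower in XO, with a median of -0.16. Of all 10372 autosomal genes tested, 3027 were higher and 2214 lower, with a median of 0.03. X-linked genes as a whole thus also sat lower in XO than autosomal genes as a whole.

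**Figure D2:**
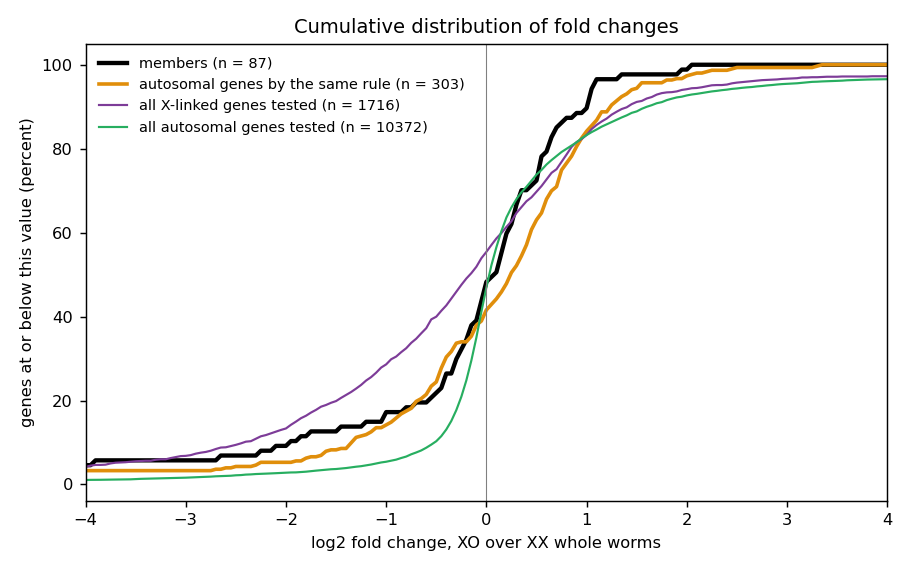
Cumulative share of genes (percent, vertical axis) at or below each log2 fold change of XO over XX whole worms (horizontal axis, shown from -4 to 4) for the 87 members, the 303 autosomal genes of the same rule, the 1716 X-linked and the 10372 autosomal genes tested. The curve of the members crossed its middle at 0.07, left of that of the same-rule autosomal genes at 0.24, and the curve of all X-linked genes crossed at -0.16.

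The same comparison was made library by library. The mean of log2(CPM + 1) over the members minus that over the 303 autosomal genes was -0.18, -0.15 and -0.15 in the XO whole worm libraries and 0.03, 0.07 and -0.01 in the XX whole worm libraries. All 3 XO libraries thus lay below all 3 XX libraries, with means of -0.16 ± 0.02 and 0.03 ± 0.04 (SD, n = 3). The level of the members themselves was 4.46 ± 0.03 in XO and 4.43 ± 0.03 in XX, and that of the autosomal genes 4.62 ± 0.04 in XO and 4.39 ± 0.06 in XX. The groups were therefore set apart mainly by the autosomal genes on this scale, which has no correction for library composition. With TMM scaling, the mean log2 fold change was -0.29 for the members and -0.06 for the autosomal genes, where the medians were 0.07 and 0.24. Which list moved more thus depended on the scale and on the summary used. In ratios of summed CPM, members to autosomal genes gave 0.279 ± 0.00637 in XO and 0.303 ± 0.00980 in XX whole worms.

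**Figure D3:**
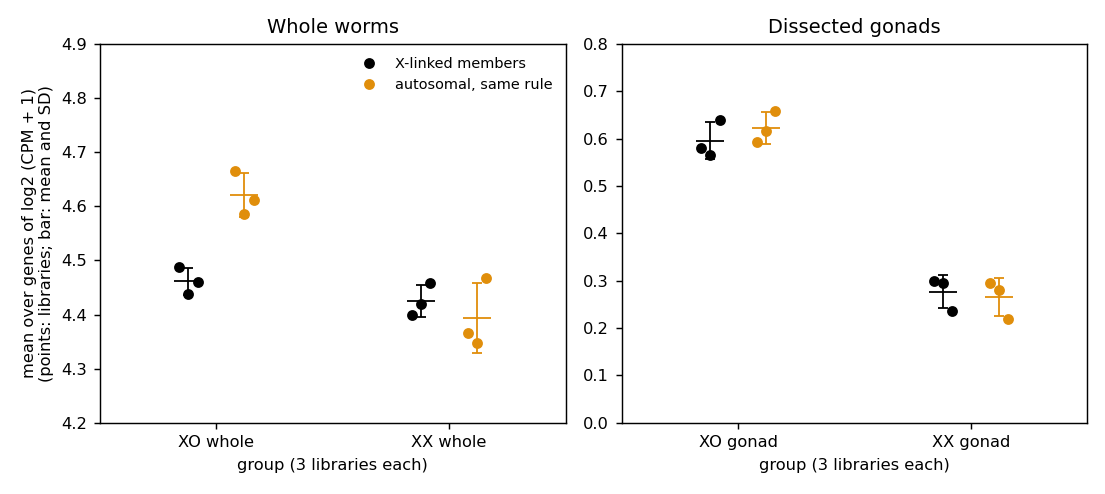
Mean over genes of log2(CPM + 1) in each library (points) with the group mean and SD (bars) for the 87 members (black) and the 303 autosomal genes of the same rule (orange), in whole worms (left) and dissected gonads (right, on a vertical axis of its own range). In whole worms the members averaged 4.46 in XO and 4.43 in XX, whereas the autosomal genes averaged 4.62 and 4.39.

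Totals rested in part on the few most abundant members. On the scale of counts divided by the effective library size from the trimmed mean of M-values (TMM), called scaled CPM and used from here on wherever it is named, and for the values of single members in whole worm libraries, the members summed to 2614 to 2856 in XO and to 2323 to 2489 in XX whole worms, ranges that did not overlap. The means were 2721 ± 124 and 2406 ± 83.1 (SD, n = 3), a ratio of 1.13. Without the 5 members highest in whole worms the means were 1988 ± 43.2 and 1910 ± 65.5, a ratio of 1.04, and the ranges of 1956 to 2038 and 1840 to 1969 overlapped. The 10 most abundant members took 39.9% of the members' counts in XO and 33.0% in XX whole worms.

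The composition of the libraries moved with these values. With library size alone as the scale, the median over all genes tested shifted upward by 0.24 on the log2 scale, the members' median became 0.31, and 43 members were higher and 18 lower in XO. Calls of higher expression then made up 70.5% of the members' calls, against 55.6% with TMM, and 78.7% of the calls over all genes. A list of intestine markers that includes the vitellogenin yolk genes summed to 113205 to 138535 plain CPM in XX and to 14472 to 15182 CPM in XO whole worms, and a list of muscle genes to 14628 to 17064 CPM in XX and 31318 to 32286 CPM in XO. The part of these differences in the members' values was not tested.

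The member with the highest level per length, F53A9.8, also rose most. At 635 plain CPM per kilobase of exon over the 6 whole worm libraries it stood far above the next members, F53A9.1 at 116 and T02C5.1 at 98.4, and the median member gave 14.5. Scaled CPM of F53A9.8 was 201, 248 and 319 in XO and 62.8, 59.9 and 68.1 in XX whole worms, so the XO libraries were all higher and the spread within XO was wide. The log2 fold change was 2.01 (SE 0.18, edgeR adjusted p = 0.000258). Its neighbours on the same clone moved the same way, F53A9.6 by 1.32 (SE 0.17, edgeR adjusted p = 9.78e-05) and F53A9.1 by 0.71 (SE 0.13, edgeR adjusted p = 0.000378). These are short genes of 234 to 264 exonic bases with related names, and since reads with several places in the genome were set aside in counting, values of close copies are uncertain.

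Of the 35 members that carry only a sequence name, 12 rose (background 29.2%), 9 fell (background 24.2%) and 14 did not pass. F09B9.4 rose to 54.2, 56.7 and 55.9 scaled CPM in XO from 12.5, 15.97 and 14.8 in XX whole worms, a tight pair of groups with a log2 fold change of 1.94 (SE 0.10, edgeR adjusted p = 9.06e-10). F45E1.4 rose by 1.08 and K09A9.6 by 1.04 on the log2 scale. R07E3.1, at 69.6, 78.6 and 91.1 in XO and 35.9, 45.4 and 49.7 in XX, rose by 0.87 (SE 0.13, edgeR adjusted p = 0.000392). T02C5.1, the second most abundant member by count, rose by 0.55 (SE 0.08, edgeR adjusted p = 5.61e-05). Its libraries gave 145, 166 and 163 in XO against 98.1, 120 and 107 in XX, again without overlap. The other members of this kind called higher were C26G2.2, Y15E3A.4, C05D9.3 and F35C8.5, with log2 fold changes from 0.63 down to 0.28. The call was lost without any 1 of 4 libraries for F35C8.5 (edgeR adjusted p up to 0.130) and without XO replicate 3 or XX replicate 2 for Y15E3A.4.

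In the other direction F09C8.1 fell furthest among the unnamed members, from 12.7, 9.82 and 11.9 scaled CPM in XX to 0.685, 0.776 and 0.742 in XO, a log2 fold change of -3.94 (SE 0.22, edgeR adjusted p = 3.77e-09). F38B6.4 fell from 22.3, 30.6 and 31.3 in XX to 5.93, 5.67 and 6.07 in XO, with a log2 fold change of -2.25 (SE 0.15, edgeR adjusted p = 2.50e-08). For both genes the XO libraries were nearly alike and far below every XX library. Y16B4A.2, abundant in both bodies, gave 124, 88.7 and 97.2 in XO and 174, 174 and 155 in XX, with a log2 fold change of -0.70 (SE 0.12, edgeR adjusted p = 0.00087). C18B2.5 gave 61.2, 65.9 and 75.8 in XO and 79.6, 95.2 and 82.5 in XX, with a log2 fold change of -0.34 (SE 0.09, edgeR adjusted p = 0.00663). The call on C18B2.5 was lost in a fit on all 12 libraries (edgeR adjusted p = 0.162) and with library size as the scale (edgeR adjusted p = 0.304). PDB1.1, F46G10.1, C49F5.7, T24C12.3 and R09F10.1 were also called lower, with log2 fold changes between -1.05 and -0.42. The call on R09F10.1 was lost without XO replicate 3 or XX replicate 3. Over all 87 members, 12 lost their call without some 1 library.

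The other 52 members have gene names. The groups of function described next were drawn up after the values were seen and serve only to order the account. Over all genes tested 29.2% were higher and 24.2% lower in XO whole worms. Those shares stand beside each count of such calls below, and no count in these small groups is read as a result.

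Among 7 proteases and peptidases, 3 were higher in XO, 2 lower and 2 did not pass. The astacin metalloprotease gene nas-37, needed for shedding the old cuticle at molts, stood at 15.8, 20.8 and 19.8 scaled CPM in XX and at 1.03, 0.155 and 0.742 in XO whole worms. Every XO library was thus close to 0, and the log2 fold change was -4.93 (SE 0.30, edgeR adjusted p = 2.15e-08). Another astacin gene, nas-11, went the other way with 48.6, 49.0 and 46.2 in XO against 32.9, 38.6 and 35.9 in XX, a log2 fold change of 0.42 (SE 0.08, edgeR adjusted p = 0.000616). The aspartyl protease gene asp-14 rose in every XO library, to 127, 153 and 163 from 68.7, 70.7 and 69.9 in XX, a log2 fold change of 1.08 (SE 0.08, edgeR adjusted p = 1.51e-07). The neprilysin gene nep-22, of a family that cuts small peptides, fell from 44.2, 37.5 and 40.9 in XX to 19.3, 17.004 and 17.2 in XO, a log2 fold change of -1.204 (SE 0.10, edgeR adjusted p = 1.93e-07). The glutamate carboxypeptidase homolog gcp-2.1 was called higher by 0.20, a call that was lost without any 1 of 5 of the 6 libraries (edgeR adjusted p up to 0.179). The dipeptidyl peptidase gene dpf-2 did not pass at -0.20 (SE 0.15).

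The ADAMTS protease gene adt-2, which shapes the cuticle and body size, was one of the most even members. It gave 45.1, 48.5 and 49.8 scaled CPM in XO and 47.6, 51.1 and 50.9 in XX, overlapping groups with a log2 fold change of -0.06 (SE 0.07, edgeR adjusted p = 0.529). Others near even at 30 CPM or more were the glutathione peroxidase gene gpx-5 at -0.02 (SE 0.09), nspg-13 of the nematode-specific peptides at 0.07 (SE 0.07), H40L08.2 at 0.00 (SE 0.14) and F25E2.2 at 0.11 (SE 0.06). For gpx-5 the XO libraries gave 38.8, 42.7 and 37.5 and the XX libraries 44.2, 40.2 and 36.7, so the groups overlapped. With library size as the scale, nspg-13 and F25E2.2 passed the test as higher in XO.

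Transporters split as well, with 4 of 8 higher, 3 lower and 1 not passing. The peptide transporter gene pept-1, which takes up dipeptides and tripeptides in the intestine, fell from 63.0, 45.4 and 53.8 scaled CPM in XX to 13.1, 12.5 and 15.3 in XO whole worms. The groups did not overlap, and the log2 fold change was -1.98 (SE 0.13, edgeR adjusted p = 3.92e-08). A pair of ammonium transporter genes of the same clone moved in opposite directions. For amt-4 the XX libraries gave 13.1, 8.54 and 19.2 and the XO libraries 3.54, 3.11 and 4.45, a log2 fold change of -1.87 (SE 0.31, edgeR adjusted p = 0.000777). For amt-1 the XO libraries gave 28.4, 25.2 and 19.5 and the XX libraries 9.46, 17.9 and 8.01, a log2 fold change of 1.05 (SE 0.32, edgeR adjusted p = 0.036). The groups did not overlap for either gene, but the call on amt-1 was lost without XO replicate 1, XO replicate 2 or XX replicate 1 (edgeR adjusted p from 0.0813 to 0.113).

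Among other transporters, pbo-4, the sodium-proton exchanger of the posterior intestine that signals in defecation, rose by 0.62 (SE 0.17, edgeR adjusted p = 0.00756). The ABC transporter gene pgp-3 was called higher by 0.55 (SE 0.18, edgeR adjusted p = 0.0218), a call lost without XO replicate 1 or XO replicate 2. The scavenger receptor gene scav-1 rose by 0.61 (SE 0.10), mrp-3 of the multidrug resistance family changed by -0.54 (SE 0.14) on the same scale, and the aquaporin gene aqp-8 did not pass at 0.23 (SE 0.13).

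**Figure D4:**
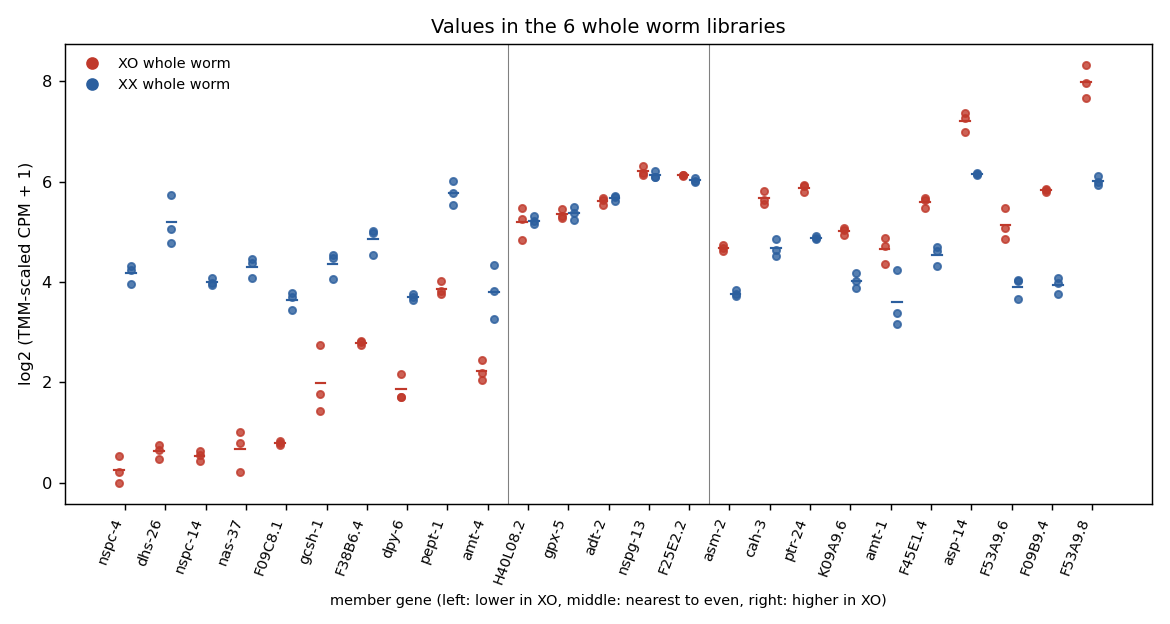
Values of 25 members in the 3 XO (red) and 3 XX (blue) whole worm libraries as log2(scaled CPM + 1), with short lines at group means. The 10 genes on the left fell in XO, the 5 in the middle lay nearest to even at 30 CPM or more, and the 10 on the right rose; nspc-4, dhs-26, nspc-14, nas-37 and F09C8.1 lay near 0 in every XO library.

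Of 4 genes for the breakdown of amino acids, 3 were called higher in XO and 1 lower. The kynureninase gene kynu-1 of tryptophan breakdown rose to 69.1, 66.4 and 63.97 scaled CPM in XO from 50.9, 51.2 and 58.9 in XX, a log2 fold change of 0.31 (SE 0.08, edgeR adjusted p = 0.00401). The tyrosine aminotransferase gene tatn-1 was called higher by 0.80 (SE 0.21, edgeR adjusted p = 0.0166), and that call was lost without XO replicate 1 or XX replicate 1. The histidine ammonia-lyase gene haly-1 was called higher by 0.33 (SE 0.10, edgeR adjusted p = 0.0151), a call lost without any 1 of 3 libraries. In contrast gcsh-1, for the H protein of the glycine cleavage system, fell from 15.6, 22.3 and 21.4 in XX to 5.70, 1.71 and 2.43 in XO, a log2 fold change of -2.70 (SE 0.36, edgeR adjusted p = 0.000561).

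Of 7 enzymes of detoxification and redox balance, 2 were higher in XO, 1 lower and 4 did not pass, and all lay within 0.51 of 0 on the log2 scale. The glucuronosyltransferase gene ugt-50 rose by 0.51 (SE 0.12) and the cytochrome P450 gene cyp-43A1 was called higher by 0.47 (SE 0.14), a call lost without any 1 of 3 libraries. The call on ugt-46 at -0.30 was lost without any 1 of 4 libraries, and ugt-23, gst-36, gst-42 and gpx-5 did not pass. Among 5 lipid enzymes, the acid sphingomyelinase gene asm-2 rose by 0.96 (SE 0.10, edgeR adjusted p = 3.88e-06) and dhcr-24, whose mammalian counterpart reduces a sterol side chain, fell with a log2 fold change of -1.47 (SE 0.16, edgeR adjusted p = 3.17e-06). The remaining lipid genes fard-1, ckc-1 and cept-1 did not pass.

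Of 5 members for cuticle, matrix, junction or filament proteins, 3 were called lower in XO and none higher. The near-even gene adt-2, which also shapes the cuticle, was counted with the proteases instead. Of the 10 X-linked genes tested from a wider cuticle and epidermis list, 3 were higher and 5 lower. The mucin-like gene dpy-6, which is needed for normal body shape, fell from 12.5, 11.95 and 11.4 scaled CPM in XX to 2.28, 2.25 and 3.51 in XO, a log2 fold change of -2.12 (SE 0.19, edgeR adjusted p = 4.41e-07). The intestinal filament gene ifd-2 fell from 12.29, 7.94 and 19.8 to 3.42, 3.73 and 4.31, a log2 fold change of -1.797 (SE 0.35, edgeR adjusted p = 0.00307). A further filament gene, ifa-4, was called lower at -0.45, a call lost without XX replicate 3. The claudin-like gene clc-1 and the collagen gene mec-5, required for touch sensing, did not pass at 0.23 and 0.12. Of the 3 defence peptide genes, spp-2 was called higher by 0.31, a call lost without any 1 of 4 libraries, and spp-4 and cnc-8 did not pass.

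The remaining 13 named members held the lowest values of the whole set, and among them 4 were higher in XO, 4 lower and 5 did not pass. The nematode-specific peptide gene nspc-4 gave 18.9, 17.8 and 14.6 scaled CPM in XX and 0.456, 0.155 and 0 in XO, a total of 6 counts over the XO libraries. Its log2 fold change was -6.60 (SE 0.37, edgeR adjusted p = 8.51e-09) and moved to -7.71 without XO replicate 1. Its relative nspc-14 fell from 14.4, 14.7 and 15.8 in XX to 0.342, 0.466 and 0.539 in XO, a log2 fold change of -4.98 (SE 0.22, edgeR adjusted p = 2.56e-10). Both nspc genes are short, at 361 and 371 exonic bases, and each gave 0.152, 0.562 and 0 CPM in the XX gonad libraries. Since reads with several places in the genome were set aside, their values are uncertain if they are close copies. The short-chain dehydrogenase gene dhs-26 fell from 52.3, 32.3 and 26.3 in XX to 0.570, 0.388 and 0.674 in XO, a log2 fold change of -6.05 (SE 0.44, edgeR adjusted p = 2.36e-05). All 3 genes were near 0 in every XO library, while their XX means ran from 14.95 to 37.0. The fourth that fell was cgr-1, for a CRAL/TRIO and GOLD domain protein, at -1.05 (SE 0.15).

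On the rising side of this group, the patched-related gene ptr-24 gave 60.01, 54.3 and 59.2 scaled CPM in XO and 29.2, 28.1 and 28.3 in XX, a log2 fold change of 1.02 (SE 0.08, edgeR adjusted p = 8.07e-08). The carbonic anhydrase gene cah-3 gave 48.6, 45.7 and 55.0 in XO and 23.9, 21.8 and 28.1 in XX, a log2 fold change of 1.01 (SE 0.11, edgeR adjusted p = 2.32e-06). Both lay close to a 2-fold rise with no overlap of libraries. The secreted endoribonuclease gene endu-2 rose by 0.68 (SE 0.17, edgeR adjusted p = 0.00703) and dve-1, a homeodomain regulator of the mitochondrial stress response, by 0.55 (SE 0.15, edgeR adjusted p = 0.00781). The kinase gene sgk-1, together with lact-1, bgal-2, dct-11 and nspg-13, did not pass.

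Members of the same clone, which lie close together, did not share one direction. Of the 9 clones that held more than 1 member, 6 held members with log2 fold changes of opposite sign. These were amt-1 (1.05) beside amt-4 (-1.87), ptr-24 (1.02) beside F46G10.1 (-0.85), ugt-23 (0.27) beside nas-37 (-4.93) and F25E2.2 (0.11) beside ifd-2 (-1.797). The remaining cases were spp-2 (0.31) beside spp-4 (-0.13) and mec-5 (0.12) beside mrp-3 (-0.54). Both genes of the pair passed the test for amt-1 with amt-4 and for ptr-24 with F46G10.1. With X cut into 3 stretches of equal length, the left stretch held 27 members with a median log2 fold change of -0.02, the middle stretch 36 with 0.21 and the right stretch 24 with -0.06. Members had a median exonic length of 1636 bases, against 1935 for the 672 other X-linked rows at 10 CPM or more in XX whole worms. Across the 87 genes the fold change followed length weakly (Spearman's rho -0.10) and mean whole worm level more closely (0.50), a description only, since level and fold change come from the same libraries.

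Marker lists were set against the rule, which 11.5% of the X-linked rows at 10 CPM or more met. The X-linked genes on a muscle list numbered 16, of which 13 reached 10 CPM in XX whole worms and all 13 were at 0.5 CPM or more in XX gonads, so none was a member. All 6 neuron genes, 5 ion channel genes and 10 signalling genes on X that reached 10 CPM were likewise at 0.5 CPM or more in XX gonads. With so few genes a list and so low a share on X as a whole, these counts of 0 members do not set the lists apart. The intestine list supplied 4 members (pept-1, ifd-2, pgp-3 and pbo-4), the metabolism list kynu-1 and tatn-1, and the cuticle, matrix and vulva lists dpy-6, adt-2 and nas-37. Of all 20 X-linked intestine genes tested, 4 were higher and 10 lower in XO, with a median log2 fold change of -0.36, and of all 52 intestine genes tested 15 were higher and 22 lower, with a median of -0.14.

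The genes that set X output were measured in the same whole worms. Of 11 genes of dosage compensation and its control, none a member, 1 was higher in XO, 6 were lower and 4 did not pass, with a median log2 fold change of -0.16. The genes sdc-1, sdc-2 and xol-1 are themselves X-linked. All 3 were called lower, with a median of -1.73, and they held the lowest values of the list. Scaled CPM of sdc-2, which brings the complex to the X chromosomes, was 10.3 ± 1.44 in XO and 33.8 ± 4.16 in XX (SD, n = 3), a log2 fold change of -1.73 (SE 0.13, edgeR adjusted p = 7.65e-08). Its partners sdc-1 and sdc-3 fell with log2 fold changes of -1.92 (SE 0.13, edgeR adjusted p = 3.35e-08) and -1.01 (SE 0.12, edgeR adjusted p = 2.14e-05). The condensin subunit gene dpy-27 fell by less, with a log2 fold change of -0.42 (SE 0.07, edgeR adjusted p = 0.000212), while dpy-21, for a histone demethylase of the complex, rose by 0.40 (SE 0.08, edgeR adjusted p = 0.000666). The lower calls also took in xol-1 at -1.37 (SE 0.36, edgeR adjusted p = 0.00519) and dpy-30 at -0.16 (SE 0.06, edgeR adjusted p = 0.0463). The level of xol-1 was low, at 1.22 ± 0.83 scaled CPM in XO and 3.27 ± 0.33 in XX (SD, n = 3). Its XO whole worm libraries held 46 counts in total. Condensin genes mix-1, dpy-26, dpy-28 and capg-1 did not pass and lay between -0.12 and 0.10. Whole worms hold germ cells that express several of these genes, so the values are not of the soma alone.

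The same genes were compared between XO whole worms and XO gonads, libraries that the rule did not use. Of the 87, 83 passed the filter on low counts in the comparison of XO whole worms with XO gonads, and all 83 were higher in whole worms, where 51.5% of 11908 genes tested were higher, 36.6% lower and 88.1% either, with a median log2 fold change of 5.81 for the members and 0.71 for all genes. They passed the filter through their whole worm counts, so that share is a description, and it was as complete for the autosomal genes of the same rule, at 294 of 294 tested. The members not tested were nspc-4, dhs-26, nspc-14 and nas-37, which were near 0 in both XO tissues.

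Levels in gonads are given as a description, since the rule held XX gonads low and so tilted the difference toward higher values in XO gonads. The median member gave 0.392 CPM in XO gonads and 0.222 CPM in XX gonads, 32 of 87 reached 0.5 CPM in XO gonads and 14 reached 1 CPM. Summed over the members, the level was 55.6 CPM ± 6.70 in XO and 19.4 CPM ± 2.68 in XX gonads (SD, n = 3), and over the 303 autosomal genes it was 189 CPM ± 13.9 in XO and 65.1 CPM ± 10.9 in XX. As a share of the whole worm level, the median member stood at 1.69% in XO and 0.827% in XX gonads, and the median of the 303 autosomal genes at 1.94% and 0.972%. Thus the label of genes used in the soma alone holds for XX gonads by choice, whereas 55 of 87 members, and 162 of the 303 autosomal genes, stayed under the same limit in XO gonads.

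The members highest in XO gonads were picked for that level, with XX held low by the rule, so their values describe size alone. F53A9.8 gave 4.78, 3.41 and 9.77 CPM in XO gonads and 0.530, 0.125 and 0.168 CPM in XX gonads. Y16B4A.2 gave 3.88, 1.797 and 2.79 CPM against 0.303, 0.312 and 0.420 CPM, and T02C5.1 gave 2.61, 2.29 and 3.49 CPM against 0.455, 0.312 and 0.588 CPM. Of these 3 genes, F53A9.8 varied most between the XO libraries. Means in XO gonads of 2.19 CPM for ptr-24 and 1.999 CPM for R07E3.1 came next. Only 14 members had enough counts to be tested between gonads, and 12 of them were higher in XO (background 8.07% of 8558 genes higher and 27.8% in either direction), a number from which nothing is read, since XX was held low and they passed the filter through XO.

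**Figure D5:**
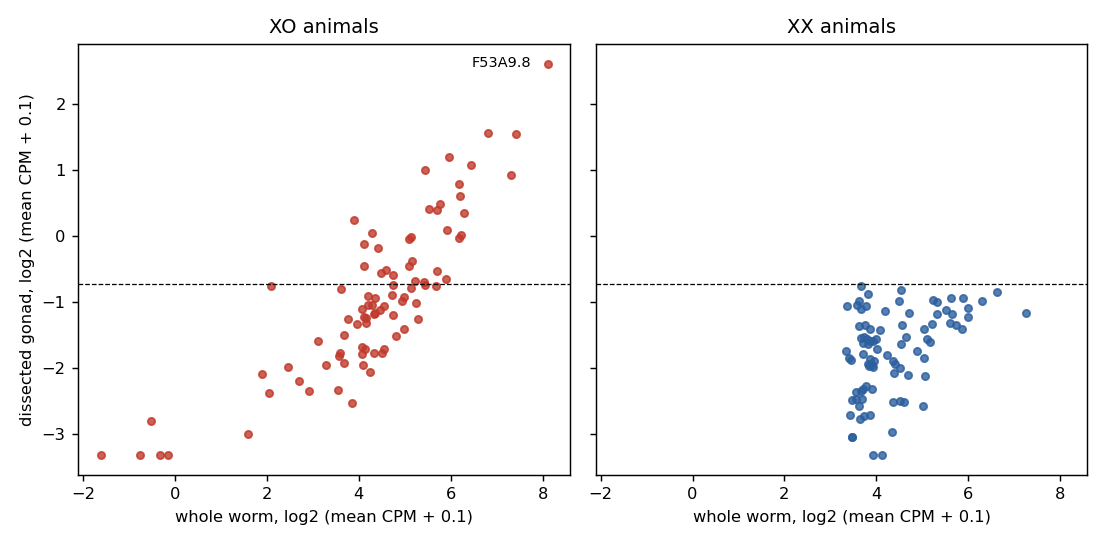
Mean CPM in dissected gonads (vertical axis) against mean CPM in whole worms (horizontal axis), both as log2(mean CPM + 0.1), for the 87 members in XO (left) and XX animals (right). The dashed line marks the rule's gonad limit of 0.5 CPM, under which all XX points lie by choice and 55 of 87 XO points lie; in XO the gonad level followed the whole worm level, with F53A9.8 highest in both.

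Gonad levels of the members ran with their whole worm levels in XO. Spearman's rho between gonad and whole worm CPM over the 87 genes was 0.83 in XO and 0.38 in XX, where the rule cut off the gonad axis, and the points of each panel share the same libraries. Intestine markers did not share one direction between gonads in plain CPM. The level of elt-2 was 0.224 CPM ± 0.139 in XO and 0.0208 CPM ± 0.0360 in XX gonads, and that of the gut esterase gene ges-1 was 0.786 CPM ± 0.295 and 0.210 CPM ± 0.0883 (SD, n = 3). The sum of the intestine list, vitellogenin genes included, was lower in XO, with 885 to 959 CPM in XO and 1378 to 1612 CPM in XX gonads. In whole worms that list summed to 14472 to 15182 CPM in XO and 113205 to 138535 CPM in XX. Relative to whole worms, the list, elt-2 and ges-1 all stood higher in XO than in XX gonads. The muscle list gave 1995 to 2159 CPM in XO and 2680 to 3061 CPM in XX gonads. In whole worms it gave 31318 to 32286 CPM in XO and 14628 to 17064 CPM in XX, so it stood lower in XO gonads on both scales. The part of tissue carried along with the gonads in the members' gonad values was not tested.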

How the data were processed

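The authors deposited raw read counts per gene, in 1 table for each of 12 libraries, not normalized. Cufflinks 2.2.0, HTSeq, SAMtools 1.2, TopHat2 2.0.12 and CASAVA 1.8 are listed in the submitters' processing notes, with no role given. Libraries were made from oligo(dT)-selected RNA with dUTP to keep strand, per the labels' protocols. Build, annotation release and strandedness of counting are not given in the sources used here. Overlapping and antisense genes therefore cannot be told apart with certainty, and no coordinates are printed. Of 20389 rows, 19899 matched 1 gene of the WBcel235 annotation by sequence name and 490 did not match. Summary rows were kept out of totals and tests.

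Tests used edgeR 4.0.16 (R 4.3.3) on the deposited counts: quasi-likelihood, TMM, filterByExpr with a minimum count of 10, 2-sided, Benjamini-Hochberg adjustment at 0.05 over all genes tested, on the 6 libraries of each comparison. SE came from the F statistic. DESeq2 1.42.0 and other alternatives are given further on. The scripts were tested on simulated counts. Members and gene lists were chosen with earlier results of these data known.

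Named genes were the 10 most abundant members, the 10 largest changes in each direction without overlap, the 5 nearest to even at 30 CPM or more, the 5 highest in XO gonads, members on a marker list and those nearest each limit. All other members, and the grouping by function, were chosen after their values were seen. Depths were 7912618 to 16140259 gene counts per library. Fold changes from amplified reads carry counting error and library spread only.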

Additional observations from a re-analysis of the deposited data

How the results depend on the processing

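The medians and the counts of calls depended both on how members were chosen and on the scale. The members' median log2 fold change of 0.07 became 0.16 in a fit on 12 libraries, 0.31 with library size only, -0.011 with a gonad limit of 0.25 CPM, 0.0059 with 1 CPM, 0.55 for genes chosen in XO libraries (mirrored rule) and 0.24 for genes at 10 CPM on the mean of both whole worm groups and under 0.5 CPM in both gonads (symmetric rule). The difference from autosomal genes of -0.17 became -0.24 without the first XX gonad library in the rule, -0.22 and -0.26 with gonad limits of 0.25 and 1 CPM, -0.43 mirrored, -0.50 symmetric, -0.13 with no symbol family set aside and 0.17 at 20 CPM in whole worms. Counts of members higher and lower in XO, 30 and 24, became 78 and 9 mirrored, 16 and 11 at 20 CPM and 59 and 44 at 5 CPM. The symmetric rule left 10 lower and the gonad limit of 0.25 CPM 18 higher. For the same 87 members, the counts were 43 and 18 with library size only and 26 and 18 in the fit on 12 libraries. Members higher in XO whole worms than XO gonads, 83, became 50 at 0.25 CPM, 137 mirrored, 37 at 20 CPM and 153 at 5 CPM. Members passing between gonads, 12, became 29 with 12 libraries, 3 and 25 with gonad limits of 0.25 and 1 CPM, 32 mirrored and 0 symmetric. These sets differ in size, from 38 to 162 genes.

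Leaving out each library in turn gave 24 to 27 higher, 22 to 27 lower, medians of 0.02 to 0.09, differences of -0.20 to -0.13, 83 to 84 in the XO tissue comparison and 12 to 15 between gonads. Same-numbered samples did not deviate together (correlations from -0.27 to 0.01), and with the replicate block 28 members were higher, 24 lower, the median was 0.07, the difference -0.17, and 83 and 11 members passed in the other comparisons. Of 420 values for 35 single genes, 398 kept direction and side of the threshold, 20 lost the call (5 genes), 2 gained it and none changed direction. The causes were not tested. Gonad depth limits the rest: the median member had 9 counts over the XX gonad libraries.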
